A study of Mus musculus with 16 samples.

Results

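The genes described here encode proteins of simple epithelium, and were followed in mouse embryonic stem cells (mESCs) kept in serum or in 2i. They were the keratins Krt7, Krt8, Krt18 and Krt19, the claudins Cldn3, Cldn4, Cldn6 and Cldn7, E-cadherin (Cdh1) and Epcam, 10 of the 21154 genes that could be named on the arrays. The set was chosen by the measured difference between 2i and serum, since Cldn6 and Krt18 were among the genes with the most reduced signal in 2i. Their 2i values are therefore given as a description, and the tests are on comparisons between lines. No p is given for Krt18 and Cldn6, whose serum and 2i values both enter the difference by which they were chosen. Every array probe whose RefSeq accession belonged to a member was used. That gave 11 probes, 1 per gene except for Cldn4, which had 2, and all 11 entered the analysis.

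RNA was measured on 16 one-colour arrays in 6 groups. J1-serum (n = 4) and J1-2i (n = 3) were wild-type J1 mESCs, a male line. TKO-serum (n = 2) and TKO-2i (n = 3) lacked the DNA methyltransferases Dnmt1, Dnmt3a and Dnmt3b. 3B3l-serum (n = 2) and 3B3l-2i (n = 2), given as 3B3-3l in the labels, lacked Dnmt3a and Dnmt3b and carried exogenous Dnmt3b and Dnmt3l that were expressed constitutively. TKO and 3B3l were made from J1 cells. Serum cultures received 15% fetal calf serum and LIF at 500 U/ml. The 2i cultures were kept for 2 weeks in N2B27 medium with the MEK inhibitor PD0325901 at 1 µM, the GSK3 inhibitor CHIR99021 at 3 µM and LIF at 1000 U/ml. J1 cells in serum were grown on inactivated SNLP feeder cells, and the TKO and 3B3l lines were grown without feeders. Feeder cells and line therefore cannot be told apart in comparisons with J1-serum, while 3B3l and TKO in serum were both without feeders. Feeders are stated for J1 in serum only, so medium and feeder cells likewise cannot be told apart in 2i against serum in J1. A group of arrays came from a single named line, and the labels do not say whether replicates were separate cultures, so the p-values measure only the spread between these arrays.

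The Dnmt3a probe was not well above background in any TKO or 3B3l array, and lay between -0.95 and 0.81 in the J1 arrays on the scale used throughout, which is the log2 of the signal minus that of the 75th percentile of its array. Dnmt1 lay between -1.70 and -1.42 in TKO and between 1.61 and 2.45 in the other arrays. Of 3 Dnmt3b probes, 1 lay at 5.44 to 6.01 in 3B3l, at -0.70 to -0.25 in TKO and at 2.88 to 3.08 in J1-serum, and the other 2 were lower in 3B3l than in J1-serum. Dnmt1 and the 3 Dnmt3b probes remained well above background on the TKO arrays. Dnmt3l lay at 5.80 to 5.89 in 3B3l-serum and 4.29 to 4.48 in 3B3l-2i. In serum it lay at 4.43 to 4.98 in J1 and 5.51 to 5.57 in TKO. In 2i it lay at 0.69 to 0.80 in J1 and 2.75 to 3.06 in TKO. All 10 mESC marker genes were well above background on every array. J1-serum replicate 1 correlated with the other J1-serum arrays at 0.968 to 0.972, where the others correlated at 0.981 to 0.987 with each other. TKO-2i replicate 1 correlated at 0.970 and 0.974 with the other TKO-2i arrays, which correlated at 0.992. Results that depend on either array are given with and without it. The arrays filled 3 slides. The 4 arrays of 3B3l shared their slide only with J1-serum replicate 1. Slide and line therefore cannot be told apart between 3B3l and the other lines, except through that array.

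Simple epithelia are built on keratin filaments, which assemble only as pairs of a type II keratin (Krt7 or Krt8) and a type I keratin (Krt18 or Krt19). Claudins form the strands of tight junctions and set what passes between cells. E-cadherin holds neighbouring cells together in adherens junctions, and Epcam is a membrane glycoprotein that associates with claudins. Mouse ES cells carry E-cadherin and Epcam at their surface, and keratins such as Krt8, Krt18 and Krt19 are known from trophectoderm and primitive endoderm, the first epithelia of the embryo.

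The sequence before the start of 4 members is shown because these are the keratin pair Krt8 and Krt18, neighbours on chromosome 15 that differed in TKO, and the claudin and the adhesion gene that were called lower in 2i in every line. The sequences are from RefSeq on build GRCm38.p6, printed 5′ to 3′ on the strand of the gene and ending before the first annotated base of the gene, which left 233 of the 250 bases for Cldn6. Capitals mark GC boxes (GGGCGG) and the E-box CACCTG, each on either strand.
Krt8, chr15:102004343-102004592, minus strand: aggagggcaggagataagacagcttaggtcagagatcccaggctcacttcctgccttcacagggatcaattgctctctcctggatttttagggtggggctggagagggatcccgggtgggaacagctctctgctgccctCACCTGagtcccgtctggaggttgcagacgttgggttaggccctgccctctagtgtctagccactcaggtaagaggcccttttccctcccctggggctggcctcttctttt
Krt18, chr15:102027966-102028215, plus strand: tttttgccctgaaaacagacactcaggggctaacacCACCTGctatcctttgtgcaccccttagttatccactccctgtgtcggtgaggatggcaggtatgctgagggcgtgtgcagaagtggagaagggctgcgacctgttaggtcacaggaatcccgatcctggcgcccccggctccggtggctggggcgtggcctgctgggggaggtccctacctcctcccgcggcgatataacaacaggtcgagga
Cldn6, chr17:23679115-23679347, plus strand: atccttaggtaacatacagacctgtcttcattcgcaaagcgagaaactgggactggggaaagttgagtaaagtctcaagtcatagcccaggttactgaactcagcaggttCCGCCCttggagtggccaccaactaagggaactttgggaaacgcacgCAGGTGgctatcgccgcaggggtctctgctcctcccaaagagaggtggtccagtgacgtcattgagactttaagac
Epcam, chr17:87635729-87635978, plus strand: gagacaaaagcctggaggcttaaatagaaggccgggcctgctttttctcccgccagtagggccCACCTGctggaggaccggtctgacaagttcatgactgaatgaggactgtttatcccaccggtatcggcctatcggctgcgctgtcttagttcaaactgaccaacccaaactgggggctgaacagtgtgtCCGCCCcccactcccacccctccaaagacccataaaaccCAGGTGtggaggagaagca
The E-box letters CACCTG, which repressors of the Snail and Zeb families are known to bind, were found in 7 of the 9 windows of 250 bases that the tables hold for 8 members. Of all 32851 windows of the same length 17.2% held it. Krt7, Krt8, Krt18, Cldn4, Cldn6, Epcam and 1 of the windows of Cldn7 had it, and the window of Cldn3 and the other window of Cldn7 did not. GC boxes were in 6 member windows (32.7% of all windows). The AP-1 letters TGANTCA were in the Cldn4 window only (6.75% of all) and the ETS letters CCGGAAG in both windows of Cldn7 (6.91% of all). No member window held the TCF/LEF letters ATCAAAG (3.21% of all) or the TATA box TATAAA (12.4% of all). CpG counts in the member windows ran from 3 for Krt8 to 16 for Krt7, against a median of 6 over all windows. A match is a description of the letters and not of binding. No window was used for Krt19 and Cdh1.

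Krt18, the type I partner of Krt8, had less signal in 2i in each of the 3 lines, by different amounts. In J1-serum its signal was 3.23, 3.87, 3.91 and 3.87, and in J1-2i it was 1.01, 0.96 and 0.86. TKO-serum gave 2.46 and 2.52, and TKO-2i gave 1.21, 0.91 and 0.76. In 3B3l-serum it was 5.51 and 5.72, the highest Krt18 values on any array, and in 3B3l-2i 0.66 and 0.43. Serum and 2i arrays did not overlap in any line, and the 3 groups in 2i lay close together while the 3 in serum were spread out. The mean difference was -2.78 ± 0.16 (SE) in J1, -1.53 ± 0.20 (SE) in TKO and -5.07 ± 0.21 (SE) in 3B3l, equal to 6.85-fold, 2.89-fold and 33.6-fold lower signal. Ranked from the lowest value, Krt18 stood at place 374 of 13902 genes in J1, 806 of 13877 in TKO and 20 of 13884 in 3B3l. J1-serum replicate 1 was below the other 3 arrays of its group, and without it the J1 difference was -2.94.

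In serum, Krt18 was highest in 3B3l, then in J1, then in TKO, and no 2 of these groups overlapped. 3B3l exceeded J1 by 1.90 ± 0.19 (SE) and TKO stood below J1, with a difference of -1.23 ± 0.19 (SE). 3B3l against TKO gave 3.13 ± 0.21 (SE), the 3 differences being log2 values from the fit across all 27126 tested probes. They are given as a description, since Krt18 was chosen by a difference that its serum values enter. Within slides, the values were -1.40 for TKO against J1 on slide 1 and 2.38 for 3B3l against J1 on slide 3. Without J1-serum replicate 1 they were -1.39 and 1.73. In 2i, the 3 lines did not differ past the threshold, with differences of 0.01 (95% interval -0.37 to 0.40) for TKO against J1, -0.40 (-0.82 to 0.03) for 3B3l against J1 and -0.41 (-0.84 to 0.01) for 3B3l against TKO.

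**Figure D1:**
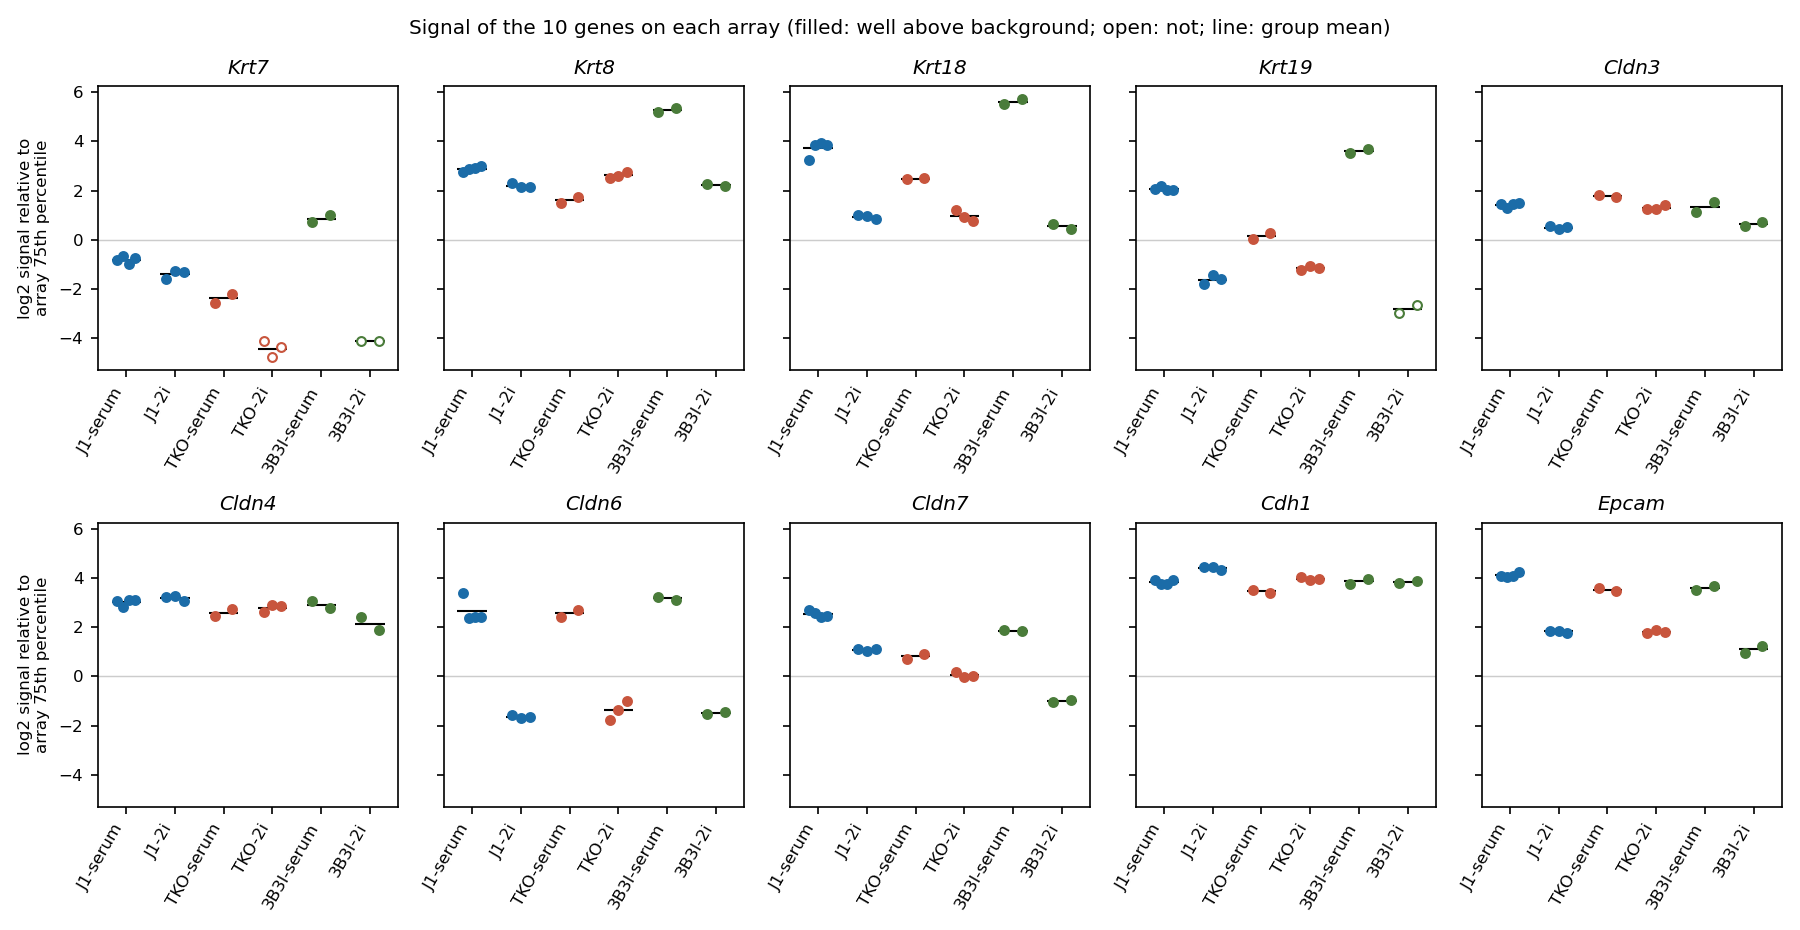
Each panel shows 1 gene, with the log2 signal relative to the array's 75th percentile on the vertical axis and the 6 groups on the horizontal axis, a point per array and a line at the group mean (for Cldn4 the brighter probe). Open points mark arrays where the probe was not well above background, which were the TKO-2i and 3B3l-2i arrays for Krt7 and the 3B3l-2i arrays for Krt19. In all 4 keratin panels the serum groups stand in the order 3B3l, J1, TKO from high to low.

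Krt8, the type II keratin that pairs with Krt18, had a different pattern in 2i. In J1 it went from 2.77, 2.88, 2.93 and 2.99 in serum to 2.29, 2.14 and 2.13 in 2i, and in 3B3l from 5.21 and 5.35 to 2.26 and 2.19. In TKO it was higher in 2i, at 2.52, 2.59 and 2.77, than in serum, at 1.51 and 1.73. The mean differences of 2i minus serum were -0.71 ± 0.10 (SE) in J1, 1.01 ± 0.11 (SE) in TKO and -3.06 ± 0.12 (SE) in 3B3l, so that Krt8 and Krt18 had opposite signs in TKO. Probe sequences were not examined here, so signal from related sequences such as keratin pseudogenes cannot be told apart from that of either gene. The TKO response differed from that of J1 by 1.72 ± 0.15 (SE) (limma, adjusted p = 4.4e-06) and the 3B3l response differed from that of TKO by -4.07 ± 0.17 (SE) (adjusted p = 7.8e-09). The higher Krt8 in TKO-2i was close to the 2-fold limit, at 2.02-fold. Without TKO-serum replicate 1 its log2 value was 0.90, and without TKO-2i replicate 3 it was 0.94. The Krt8 and Krt18 genes lie 23.9 kb apart on chromosome 15.

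In serum, Krt8 stood in the same order as Krt18, 3B3l having a mean of 5.28 ± 0.10 (SD, n = 2), J1 of 2.89 ± 0.09 (SD, n = 4) and TKO of 1.62 ± 0.15 (SD, n = 2). 3B3l exceeded J1 by 2.39 ± 0.11 (SE) (adjusted p = 8.1e-09), or 5.23-fold, and TKO was below J1, with a difference of -1.27 ± 0.11 (SE) (adjusted p = 1.5e-06). In 2i, TKO was the highest of the 3, and J1 and 3B3l overlapped, with a difference of 0.04 (95% interval -0.21 to 0.28). TKO against J1 in 2i, at 0.45 ± 0.10 (SE) (adjusted p = 0.0074), was under 2-fold.

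Krt19, a small type I keratin of simple and ductal epithelia, was lower in 2i in all lines, and in 3B3l it was no longer well above background. Its serum values were 2.07, 2.17, 2.03 and 2.03 in J1, 0.04 and 0.26 in TKO and 3.52 and 3.69 in 3B3l. In 2i they were -1.81, -1.44 and -1.60 in J1 and -1.24, -1.04 and -1.15 in TKO, and the measured 3B3l-2i values were -2.96 and -2.63. 2i minus serum was -3.69 ± 0.11 (SE) in J1, or 12.9-fold lower, and -1.30 ± 0.14 (SE) in TKO, or 2.45-fold lower. In 3B3l the signal was at least 60.8-fold lower in 2i. Such bounds set the mean of the bright group against the higher of the dim probe's own value and the lowest signal well above background on each dim array. Ranked from the lowest, Krt19 stood at place 147 in J1 and 1024 in TKO. The TKO response minus the J1 response was 2.40 ± 0.18 (SE) (adjusted p = 1.3e-06), with both 2i groups well above background.

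In serum Krt19 was below J1 in TKO, with a difference of -1.93 ± 0.13 (SE) (adjusted p = 2.1e-07) and above it in 3B3l, by 1.53 ± 0.13 (SE) (adjusted p = 1.2e-06). The difference between 3B3l and TKO in serum was 3.45 ± 0.15 (SE) (adjusted p = 1.5e-08), or 11-fold. In 2i the order was changed. 3B3l was below J1 by at least 1.63-fold and below TKO by at least 2.26-fold. The tests are of the fitted differences, -1.18 (adjusted p = 3.3e-05) and -1.65 (adjusted p = 2.6e-06), and not of these bounds. They rest on 3B3l-2i arrays not well above background. With normexp background correction the fitted value of 3B3l against J1 was -0.75, under 2-fold. TKO was above J1 in 2i by 0.47 ± 0.12 (SE) (adjusted p = 0.014), under 2-fold.

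Krt7, a type II keratin of glandular and trophoblast epithelium, differed between all 3 lines in serum and was well above background in 2i only in J1. J1 kept a signal in both media, at -0.84, -0.64, -1.0 and -0.75 in serum and -1.59, -1.28 and -1.32 in 2i, a difference of -0.59 ± 0.16 (SE). TKO-serum gave -2.57 and -2.18 and 3B3l-serum 0.73 and 1.00, and neither line was well above background on any 2i array. The TKO-2i signal was at least 1.96-fold below serum and the 3B3l-2i signal at least 9.09-fold below. Between lines in serum, TKO was below J1, with a difference of -1.57 ± 0.18 (SE) (adjusted p = 1.9e-05) and 3B3l above J1 by 1.67 ± 0.18 (SE) (adjusted p = 9.2e-06). 3B3l was above TKO by 3.24 ± 0.21 (SE) (adjusted p = 3.8e-07). In 2i, TKO was at least 3.87-fold below J1, and 3B3l at least 1.9-fold below J1. The tests are of the fitted differences, -3.02 (adjusted p = 1.5e-07) and -2.71 (adjusted p = 6.4e-07), and not of these bounds. With neither TKO-2i nor 3B3l-2i well above background, the difference between 3B3l and TKO in 2i was not measured. With normexp background correction the fitted TKO value of 2i minus serum was -0.85, under 2-fold.

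Over all 10 members, 5 were called lower and none higher in TKO than in J1 in serum, where a call needs an adjusted p of at most 0.05 and at least 2-fold. They were the 4 keratins and Cldn7. In this comparison 16.5% of all tested genes were called, 7.76% higher and 8.74% lower. In 3B3l against J1 in serum, the 4 keratins were called higher and no member was called lower, and 19.3% of all tested genes were called, 9.86% higher and 9.43% lower. In 3B3l against TKO in serum, 5 members were called higher, the 4 keratins and Cldn7, and 10.7% of all tested genes were called, 5.2% higher and 5.49% lower. The median log2 difference of the members was -0.92, 0.27 and 0.83 in these 3 comparisons, and that of all tested genes 0.01, 0.13 and 0.13. The 3 comparisons share arrays and are not independent of each other. The 4 keratins include Krt18, whose serum values enter the difference by which it was chosen, so its calls here are a description.

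**Figure D2:**
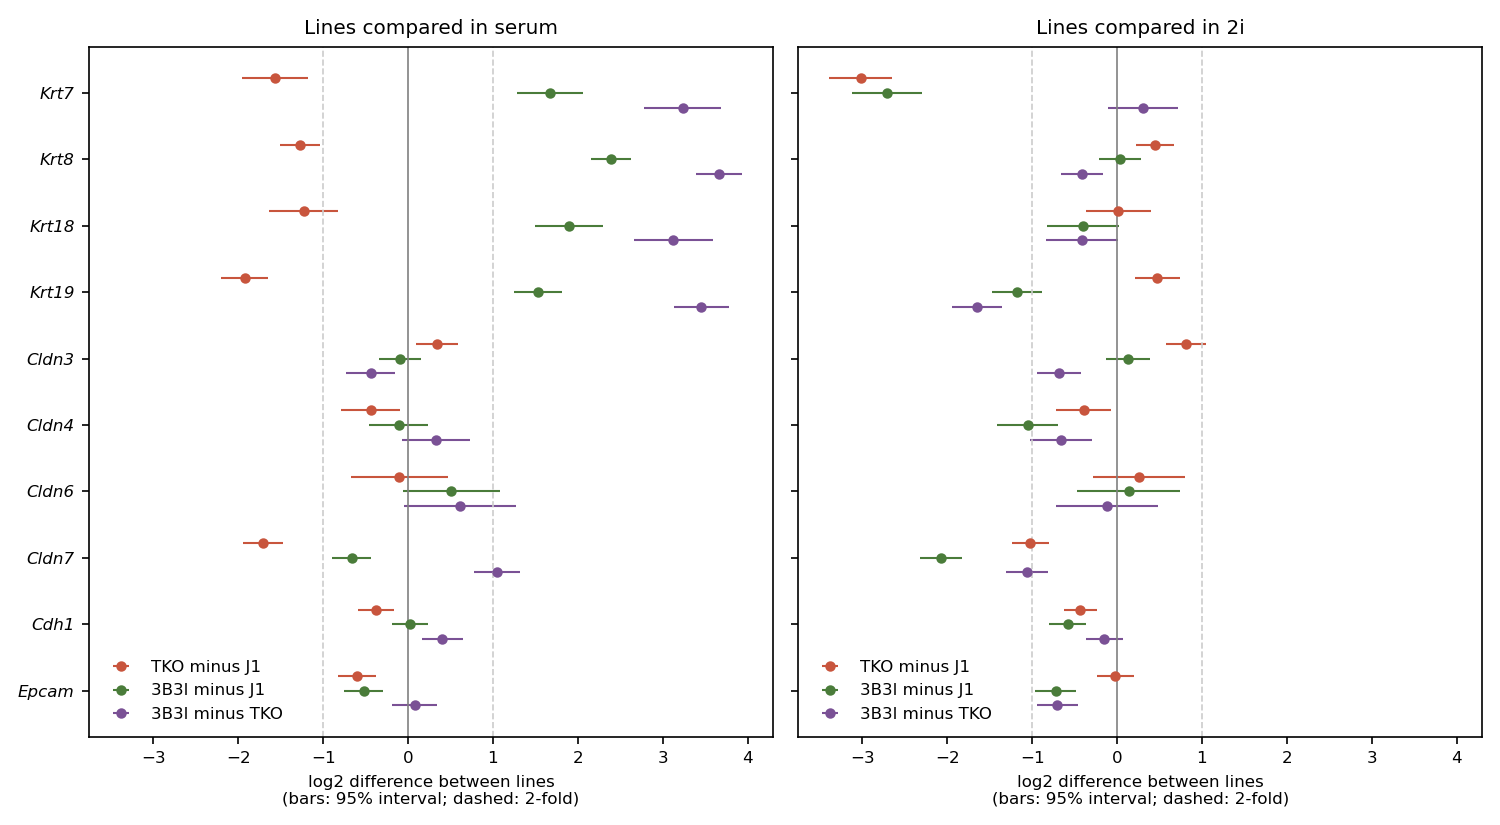
Log2 differences between lines in serum (left) and in 2i (right) for the 10 genes, with bars for the 95% interval from the fit and dashed lines at 2-fold. In serum, the TKO minus J1 points of the 4 keratins lie between -1.93 and -1.23 and their 3B3l minus J1 points between 1.53 and 2.39. In the 2i panel, points of Krt7 and of Krt19 that involve 3B3l, and of Krt7 that involve TKO, rest on arrays not well above background.

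Markers of other cell types differed between the same groups. The 18 fibroblast markers, listed for the feeder cells, summed to 73.3 to 87.9 times the 75th percentile in J1-serum, to 71.2 to 71.3 in 3B3l-serum, which was grown without feeders, and to 25.5 to 27.5 in TKO-serum. In 2i, the sums were 19.4 to 21.7 in J1, 26.7 to 29.7 in TKO and 25 to 25.8 in 3B3l. Of these 18, 14 or 15 were well above background in J1-serum, 13 in 3B3l-serum and 12 in TKO-serum. Lum and Prrx1 were not well above background on any array. By gene, 7 of the 15 tested were called lower and 1 higher in 3B3l-serum than in J1-serum, with a median difference of -0.68. In TKO-serum against J1-serum 12 were called lower and 0 higher, with a median of -1.96. In 3B3l-serum against TKO-serum 10 were called higher and 0 lower, with a median of 1.28. The shares of all tested genes called are those given above. Vim, Tagln and Acta2, which many other cells also express, had the highest means in 3B3l-serum, at 4.90, 4.39 and 2.92, against 4.52, 3.81 and 3.6 in J1-serum. Dcn was well above background on all 4 J1-serum arrays and on no 3B3l-serum array. Since RNA was taken from whole cultures, fewer cells of a type and less RNA per cell cannot be told apart.

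The 10 markers of extraembryonic endoderm summed to 69.8 to 88.0 in J1-serum, 18.6 to 21.6 in TKO-serum, 14.5 to 15.4 in 3B3l-serum and 6.46 to 14.6 in the 2i groups. In J1-serum 8 or 9 of them were well above background, with Gata6, Gata4, Sox17, Sox7, Foxa2 and Dab2 among those on all 4 arrays, and in the 2i groups 2 to 4. The laminin genes Lama1 and Lamb1 weighed most in the linear sums. Their means were 4.95 and 5.27 in J1-serum and 2.82 and 3.50 in TKO-serum. The 10 trophoblast markers, of which Krt7 is 1, summed to 12.5 to 14.6 in 3B3l-serum and to 5.85 to 9.43 in the other 5 groups. Tfap2c, Ascl2 and Krt7 weighed most in the 3B3l-serum sum, with means of 2.24, 1.92 and 0.86. In 3B3l-serum 8 or 9 of the 10 markers were well above background, including Gata3 and Hand1, which were not well above background on any J1 array. Gata3 was also well above background on the 2 TKO-serum arrays. There 6 or 7 of the markers were, and 5 or 6 in J1-serum. The trophoblast marker Elf5 was well above background on 1 of the 16 arrays. The 6 markers of stratified epithelium summed to 3.75 to 7.98 over all arrays. The part of these cell types in the keratin and claudin differences was not tested.

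**Figure D3:**
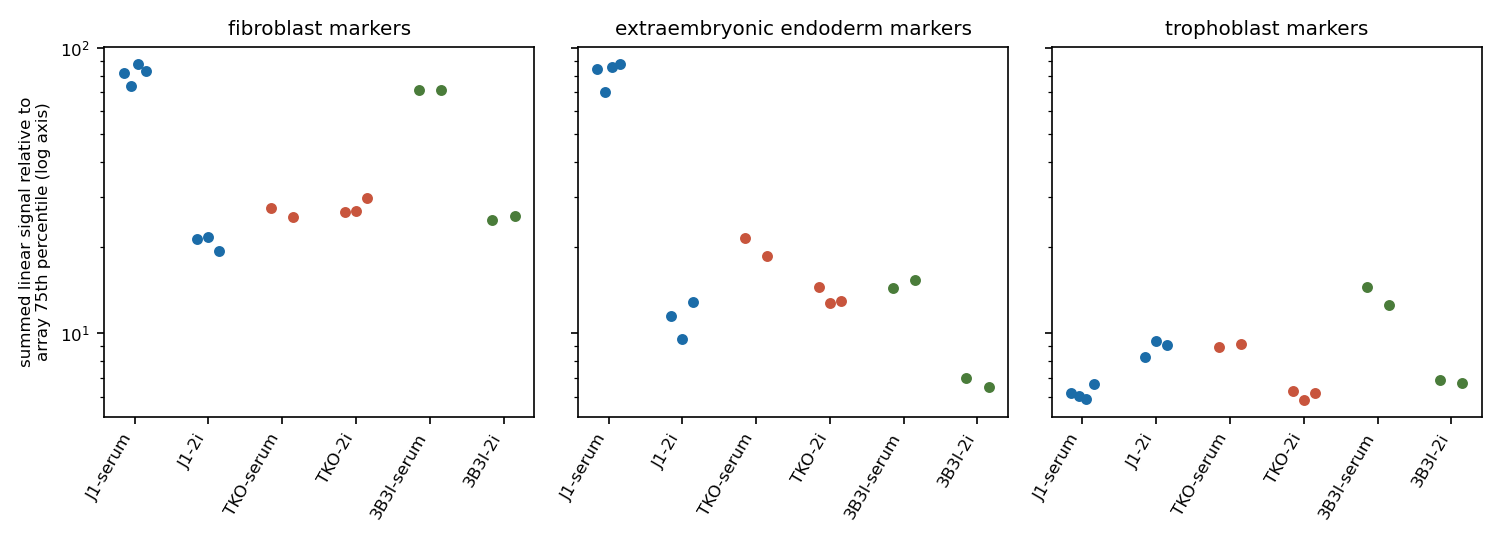
Summed linear signal of marker genes, relative to the array's 75th percentile and on a log axis, for each array in the 6 groups. The fibroblast sum is 73.3 to 87.9 in J1-serum and 71.2 to 71.3 in 3B3l-serum, although 7 of 15 tested fibroblast markers were called lower in 3B3l-serum, and the extraembryonic endoderm sum is highest in J1-serum and the trophoblast sum in 3B3l-serum.

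Cldn6, a claudin of early embryonic epithelium and pluripotent cells, was reduced in 2i in each line. In serum it was 3.40, 2.38, 2.43 and 2.43 in J1, 2.43 and 2.68 in TKO and 3.22 and 3.12 in 3B3l. In 2i it was -1.56, -1.68 and -1.66 in J1, -1.76, -1.36 and -1.02 in TKO and -1.54 and -1.46 in 3B3l, above background on every array. All serum arrays lay above all 2i arrays. 2i minus serum was -4.29 ± 0.23 (SE) in J1, -3.93 ± 0.28 (SE) in TKO and -4.67 ± 0.30 (SE) in 3B3l, or 19.6-fold, 15.3-fold and 25.4-fold lower. It stood at place 77, 58 and 31 from the lowest in the 3 lines. J1-serum replicate 1 was above the rest of its group, and without it the J1 value was -4.05. Without TKO-2i replicate 1 the TKO value was -3.74.

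Cldn6 was not called in any comparison between lines. In serum, the differences were -0.10 (95% interval -0.68 to 0.47) for TKO against J1, 0.51 (-0.06 to 1.08) for 3B3l against J1 and 0.62 (-0.04 to 1.28) for 3B3l against TKO. In 2i they were 0.26 (-0.28 to 0.80), 0.14 (-0.47 to 0.74) and -0.12 (-0.72 to 0.48). The serum values against J1 depended on J1-serum replicate 1. Without that array TKO against J1 was 0.14, and 3B3l against J1 was 0.76, under 2-fold. On slide 3, where that array is the only J1 array, 3B3l against J1 was -0.23. With slide as a block, the serum differences of 3B3l turned to -0.23 against J1 and -0.29 against TKO. In that fit, 3B3l against TKO in 2i passed both call limits, at -1.1.

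Epcam was also reduced in 2i in every line. It was 4.08, 4.04, 4.07 and 4.25 in J1-serum and 1.86, 1.85 and 1.77 in J1-2i, 3.57 and 3.45 in TKO-serum and 1.77, 1.86 and 1.79 in TKO-2i, and 3.51 and 3.67 in 3B3l-serum and 0.96 and 1.25 in 3B3l-2i. Serum and 2i did not overlap. 2i minus serum was -2.28 ± 0.09 (SE), -1.70 ± 0.11 (SE) and -2.48 ± 0.12 (SE) in J1, TKO and 3B3l, or 4.87-fold, 3.25-fold and 5.59-fold lower. In serum, TKO and 3B3l overlapped and were both below J1, with differences of -0.60 ± 0.11 (SE) (adjusted p = 0.00055) and -0.52 ± 0.11 (SE) (adjusted p = 0.0013). In 2i, TKO and J1 overlapped, and 3B3l was below J1, with a difference of -0.72 ± 0.11 (SE) (adjusted p = 0.00031). None of these reached 2-fold.

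Cldn7, a claudin that binds Epcam at the lateral membrane, was called in 5 of the 6 comparisons between lines. Its serum values were 2.70, 2.57, 2.40 and 2.43 in J1, 0.70 and 0.93 in TKO and 1.90 and 1.82 in 3B3l. Its 2i values were 1.1, 1.03 and 1.1 in J1, 0.17, -0.02 and 0.02 in TKO and -1.03 and -0.97 in 3B3l. The groups were ordered J1, 3B3l, TKO in serum and J1, TKO, 3B3l in 2i, with no overlap in either medium. TKO was below J1, with a difference of -1.71 ± 0.11 (SE) in serum (adjusted p = 1.3e-07) and -1.02 ± 0.10 (SE) in 2i (adjusted p = 1.6e-05). 3B3l was below J1, with a difference of -2.08 ± 0.11 (SE) in 2i (adjusted p = 8.5e-08) and, under 2-fold, -0.67 ± 0.11 (SE) in serum (adjusted p = 0.00026).

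The 2i values of Cldn7 relative to serum were -1.45 ± 0.10 (SE) in J1, -0.76 ± 0.11 (SE) in TKO and -2.86 ± 0.12 (SE) in 3B3l. The 3B3l response minus that of J1 was -1.41 ± 0.16 (SE) (adjusted p = 2.9e-05), and minus that of TKO it was -2.10 ± 0.17 (SE) (adjusted p = 4e-06). 3B3l stood above TKO in serum by 1.04 ± 0.12 (SE) (adjusted p = 6.8e-05) and below TKO in 2i, with a difference of -1.06 ± 0.11 (SE) (adjusted p = 2.5e-05). With slide as a block these were 0.79, which is under 2-fold, and -1.29. The TKO against J1 value in 2i was -0.99 after quantile normalization and -0.98 without TKO-2i replicate 2, and so at the 2-fold limit, and 3B3l against TKO in 2i was -1.0 without TKO-2i replicate 1.

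Cldn4, a claudin of tight epithelia and a receptor for a clostridial enterotoxin, was lower in 3B3l-2i than elsewhere by both of its probes. The brighter probe gave 3.07, 2.82, 3.09 and 3.12 in J1-serum, 3.24, 3.26 and 3.06 in J1-2i, 2.45 and 2.72 in TKO-serum and 2.63, 2.88 and 2.87 in TKO-2i. It gave 3.05 and 2.77 in 3B3l-serum and 2.39 and 1.87 in 3B3l-2i, the latter below every other array. 3B3l against J1 in 2i was -1.05 ± 0.17 (SE) (adjusted p = 0.0004) by this probe and -1.51 ± 0.11 (SE) (adjusted p = 8.1e-07) by the other. Without 3B3l-2i replicate 2 the brighter probe gave -0.79, under 2-fold. For 2i minus serum the probes gave 0.16 and 0.09 in J1, 0.21 and 0.33 in TKO, and -0.78 and -1.13 in 3B3l. The last value of the dimmer probe passed the call limits and that of the brighter probe did not.

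Cldn3, which lies 39.3 kb from Cldn4 on chromosome 5, differed less. The J1-serum arrays gave 1.47, 1.30, 1.47 and 1.49, the TKO-serum arrays 1.81 and 1.74 and the 3B3l-serum arrays 1.15 and 1.52. In 2i the values were 0.55, 0.43 and 0.50 for J1, 1.26, 1.26 and 1.41 for TKO and 0.55 and 0.71 for 3B3l. 2i minus serum was -0.94, -0.47 and -0.71 in J1, TKO and 3B3l, under 2-fold in each. The largest line difference was TKO above J1 in 2i, by 0.81 ± 0.11 (SE) (adjusted p = 0.00015). 3B3l against J1 was -0.10 in serum and 0.13 in 2i.

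Cdh1, which encodes E-cadherin, was high in every group and differed by under 2-fold in all 12 comparisons. Its 10 spots averaged to 3.93, 3.75, 3.76 and 3.90 on the J1-serum arrays, 3.51 and 3.40 on those of TKO-serum and 3.77 and 3.95 on those of 3B3l-serum. The 2i arrays gave 4.46, 4.44 and 4.31 for J1, 4.04, 3.93 and 3.94 for TKO and 3.78 and 3.86 for 3B3l. 2i minus serum was 0.57 ± 0.09 (SE) in J1, 0.52 ± 0.10 (SE) in TKO and -0.04 ± 0.11 (SE) in 3B3l, so that E-cadherin was the only member with positive values in both J1 and TKO apart from Cldn4. In 2i, 3B3l was below J1, with a difference of -0.58 ± 0.10 (SE) (adjusted p = 0.0008), and the 3B3l response was below that of J1, with a difference of -0.61 ± 0.14 (SE) (adjusted p = 0.0064).

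Counted over the members, 5 were called lower in 2i in J1 and none higher, and 22.6% of all tested genes were called, 10.1% higher and 12.6% lower. In TKO 5 were called lower and 1 higher. The 5 include Krt7, whose bound of 1.96-fold does not reach 2-fold and which was not called with normexp. In TKO 15.8% of all tested genes were called, 6.72% higher and 9.08% lower. In 3B3l 7 were called lower, and 13.6% of all tested genes were called, 5.62% higher and 7.95% lower. These counts use the contrast by which the set was chosen and are given as a description. Krt18, Krt19, Cldn6 and Epcam were called lower in all 3 lines, as were 498 genes in all.

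**Figure D4:**
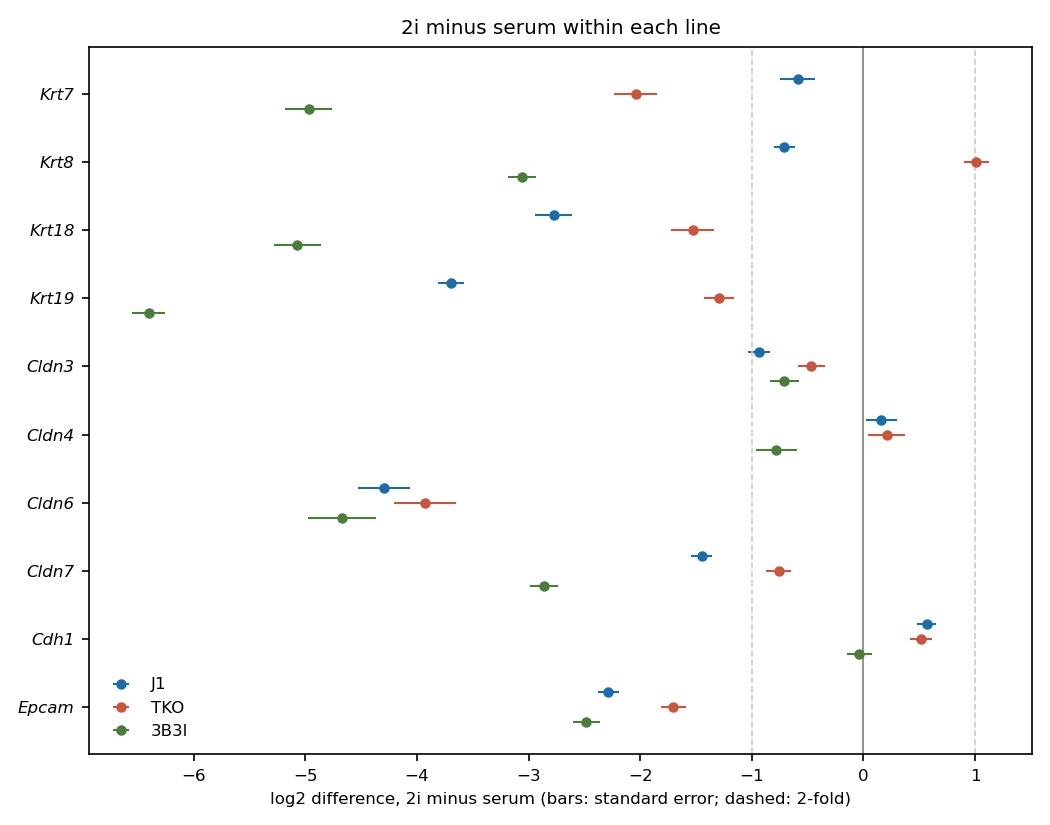
Log2 difference of 2i minus serum for the 10 genes in J1, TKO and 3B3l, with bars for the standard error and dashed lines at 2-fold. Cldn6 lies between -4.67 and -3.93 and Epcam between -2.48 and -1.70, whereas Krt8 is at 1.01 in TKO and -3.06 in 3B3l. The Krt7 points of TKO and 3B3l and the Krt19 point of 3B3l rest on 2i arrays not well above background.

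Whether the 2i response differed between lines was tested for the 8 members other than Krt18 and Cldn6. The TKO and J1 responses differed for 3 of the 8, Krt7, Krt8 and Krt19, and 15.3% of all tested genes were called, 7.76% higher and 7.51% lower. The 3B3l and J1 responses differed for 4, Krt7, Krt8, Krt19 and Cldn7, and 17.2% of all tested genes were called, 8.63% higher and 8.59% lower. The 3B3l and TKO responses differed for Krt8, Krt19 and Cldn7, while for Krt7, with neither 2i group well above background, the difference was not measured. In this comparison 9.47% of all tested genes were called, 4.68% higher and 4.79% lower. For Krt8, 3B3l minus J1 was -2.35 ± 0.16 (SE) (adjusted p = 4.5e-07). The fitted values for Krt7 and for Krt19 in 3B3l rest on 2i arrays not well above background, and with normexp background correction the Krt7 difference of TKO minus J1 was -0.35 (adjusted p = 0.12). The dimmer Cldn4 probe also passed, at -1.22 for 3B3l minus J1 (adjusted p = 6.5e-05) and -1.46 for 3B3l minus TKO (adjusted p = 6.2e-05), where the brighter gave -0.94 and -0.99. Epcam differed by 0.58 between TKO and J1 (adjusted p = 0.0099) and by -0.78 between 3B3l and TKO (adjusted p = 0.0067), both under 2-fold. For the chosen genes, the differences of response were 1.24, -2.29 and -3.54 for Krt18 and 0.36, -0.38 and -0.74 for Cldn6, for TKO minus J1, 3B3l minus J1 and 3B3l minus TKO. All J1 comparisons share the feeder-grown J1-serum arrays.

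In 2i, 2 members were called lower in TKO than in J1, Krt7 and Cldn7, and 7.35% of all tested genes were called, 3.8% higher and 3.55% lower. For 3B3l against J1 in 2i, 4 were called lower, Krt7, Krt19, Cldn4 and Cldn7. The calls of Krt7 and Krt19 rest on fitted values of 3B3l-2i arrays not well above background, and their bounds of 1.9-fold and 1.63-fold do not reach 2-fold. In this comparison 14.4% of all tested genes were called, 7.82% higher and 6.56% lower. For 3B3l against TKO in 2i, 2 were called lower, Krt19 and Cldn7, and 10% of all tested genes were called, 4.67% higher and 5.35% lower. The dimmer Cldn4 probe also passed there, at -1.06 (adjusted p = 1.6e-05). No member was called higher in these 3 comparisons. With slide as a block, 3B3l against J1 in 2i gave -1.12 for the brighter Cldn4 probe and -2.31 for Cldn7.

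Related genes were followed through 7 lists, and their values are fitted log2 differences of 2i minus serum in the order J1, TKO, 3B3l. No value is given where a gene was not well above background on any array of one of the groups compared, and calls counted over a list include such genes. A gene well above background on all arrays of only 1 group was tested through that group, so that its calls against that group are not evidence of a change, and counts without such genes, chosen after seeing the data, are given where they differ. The shares of all tested genes called in these comparisons are those given above. Of 14 other keratins, 9 were tested, and 2, 2 and 3 were called lower in 2i in J1, TKO and 3B3l, with none called higher. Their median 2i difference was -0.71, -0.27 and -0.21, and that of all tested genes 0.05, 0.07 and 0.00. Krt13, a type I keratin of stratified mucosa whose gene lies 19.2 kb from Krt19, was at -1.31, -0.80 and -3.43. Krt17 was at -0.08 in J1 and -3.31 in TKO, and was not well above background in 3B3l-2i. Krt10, at -0.71, 0.29 and 0.65, and Krt16, at -1.11, 1.41 and -0.05, were not called. Krt13 and Krt42 were called higher in 3B3l-serum than in J1-serum, at 1.74 and 1.58. None of the 9 was called lower there, and their median was -0.15, with 0.13 over all tested genes. For TKO against J1 in serum 1 was called higher and 0 lower. For 3B3l against TKO in serum 2 were called higher and 2 lower, with a median of -0.01.

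Of 18 other genes listed as claudins, which include the claudin domain gene Cldnd1, 5 were tested, and 2, 2 and 1 were called lower in 2i in the 3 lines. Cldn9 was called lower in all 3, at -2.68, -2.61 and -2.37. Its gene lies 0.138 kb from Cldn6 on chromosome 17, and the probe sequences were not examined here, so signal shared between the neighbours cannot be told apart from signal of its own. Tnfrsf12a, on the other side of Cldn6 at 1.90 kb, was at -2.72, -0.89 and -2.79, called lower in J1 and 3B3l. Cldn5, the claudin of endothelium, was at -1.37 in J1 and -1.35 in TKO, both called lower, and was not well above background in 3B3l-2i. Cldn13, a neighbour of Cldn4 that was not in the list, was tested and not called. Cldn14 was well above background on all arrays of 3B3l-serum only and was not called.

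Among 18 tight junction partners, 16 were tested, of which 4, 6 and 4 were called lower and 2, 3 and 2 higher in 2i in J1, TKO and 3B3l. Their medians were -0.32, -0.56 and -0.56. Cgn, the scaffold protein cingulin, was called lower in all 3 lines, at -3.29, -3.11 and -2.72. Marveld3, a tetraspan junction protein, was at -1.28 in J1 and was not well above background in TKO-2i or 3B3l-2i. Lsr, a protein of tricellular contacts, was at -1.05, -1.84 and -1.51, and both were called in all 3 lines. The adhesion molecules Jam2, at 2.02, 1.07 and 1.56, and Jam3, at 1.41, 1.41 and 1.17, were called higher in all 3. The scaffold Tjp1, also known as ZO-1, was not called in any line, at -0.10, -0.05 and -0.83.

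Of 13 adherens junction partners, 11 were tested, with 1, 1 and 1 called lower and 2, 1 and 2 higher. Cdh3, which encodes P-cadherin and lies 46.4 kb from Cdh1 on chromosome 8, was called lower in all 3 lines, at -1.99, -1.83 and -2.07, while Cdh1 was not. Nectin1 was called higher in all 3, at 1.00, 1.40 and 1.62. The catenins Ctnnb1, at 0.10, 0.36 and 0.16, and Ctnna1, at 0.03, 0.21 and -0.60, were not called in 2i. Nectin2, at -0.87, -0.49 and -0.27, had the next lowest mean after Cdh3. Cdh11 was at -0.34 in J1 and 0.67 in TKO, not called in either, and was not well above background in 3B3l-serum.

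Desmosomes anchor keratin filaments, and 10 of 11 genes listed for them and for keratin linkers were tested. In 2i, 3, 2 and 6 were called lower in J1, TKO and 3B3l and 2, 0 and 0 higher, with medians of -0.24, 0.05 and -1.81. Without Dsc2, well above background on all arrays of 3B3l-serum only, 3, 2 and 5 of 9 were lower, with medians of -0.45, 0.04 and -1.75. Dsp, the keratin linker desmoplakin, was at 1.09, 0.07 and -2.55, called higher in J1 and lower in 3B3l. Perp, a desmosomal membrane protein, was at -1.73, -0.75 and -3.91, and Evpl, the linker envoplakin, at -3.08, -1.16 and 0.12. Dsg2, a desmosomal cadherin, was at 1.80, 0.79 and 0.56, called higher in J1. In serum, without Dsc2, 2 of the 9 were called higher for 3B3l against J1 and 4 for 3B3l against TKO, with none called lower. Dsp was 2.28 and Plec, which encodes plectin, 1.21 in 3B3l against J1. The median of the 9 was 0.84 there, with 0.13 over all tested genes.

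The 12 epithelial surface and serine protease genes were all tested, and 2, 3 and 5 were called lower and 0, 1 and 0 higher in 2i. Without 2 genes that were well above background on all arrays of only 1 group, 2, 2 and 4 of 10 were lower. Anxa3, an annexin, was called lower in all 3 lines, at -2.17 in TKO and -5.12 in 3B3l, and was not well above background in J1-2i. Sfn, the epithelial 14-3-3 protein stratifin, was at -0.94, -1.68 and -3.60. The highest means were those of the protease inhibitor Spint1, at 0.96, 0.88 and 0.76, and the tetraspanin Cd9, at 0.40, 0.59 and 0.42, which were not called. In serum, Sfn was 3.13 in 3B3l against J1 and called higher.

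All 19 regulators of the epithelial program were tested, with 7, 4 and 4 called lower and 6, 3 and 4 higher in 2i. Without Zeb2, well above background on all arrays of 3B3l-serum only, 6, 4 and 3 of 18 were lower. Grhl1, at -1.20, -1.94 and -1.28, was called lower in all 3 lines. Gata3 was well above background on all arrays of TKO-serum and 3B3l-serum and on none of the other groups, so that no change is given for it. The counts of 19 and of 18 still include Gata3, also in J1, where no array was well above background. Elf3, at 1.19, 1.29 and 2.70, and Tead4, at 1.28, 2.13 and 1.15, were called higher in all 3. Grhl2, an activator of Cdh1 and claudin genes, was at -0.30 in J1 and -1.95 in TKO, called lower in TKO and in 3B3l, where it was not well above background in 2i. Of the factors that bind CACCTG, Snai2 was at 0.05, 0.46 and 0.29, not called, and Zeb1 at 0.78, 0.70 and 1.06, called higher in 3B3l. Snai1 was at 0.27 in TKO and 0.02 in 3B3l, and in J1, where it was called lower, it was not well above background in 2i. Cdx2, a regulator of trophectoderm and gut epithelium, was called higher in TKO, where no serum array was well above background, and was at 0.44 in 3B3l. In J1 it was well above background on 1 of 4 serum arrays and on no 2i array.

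**Figure D5:**
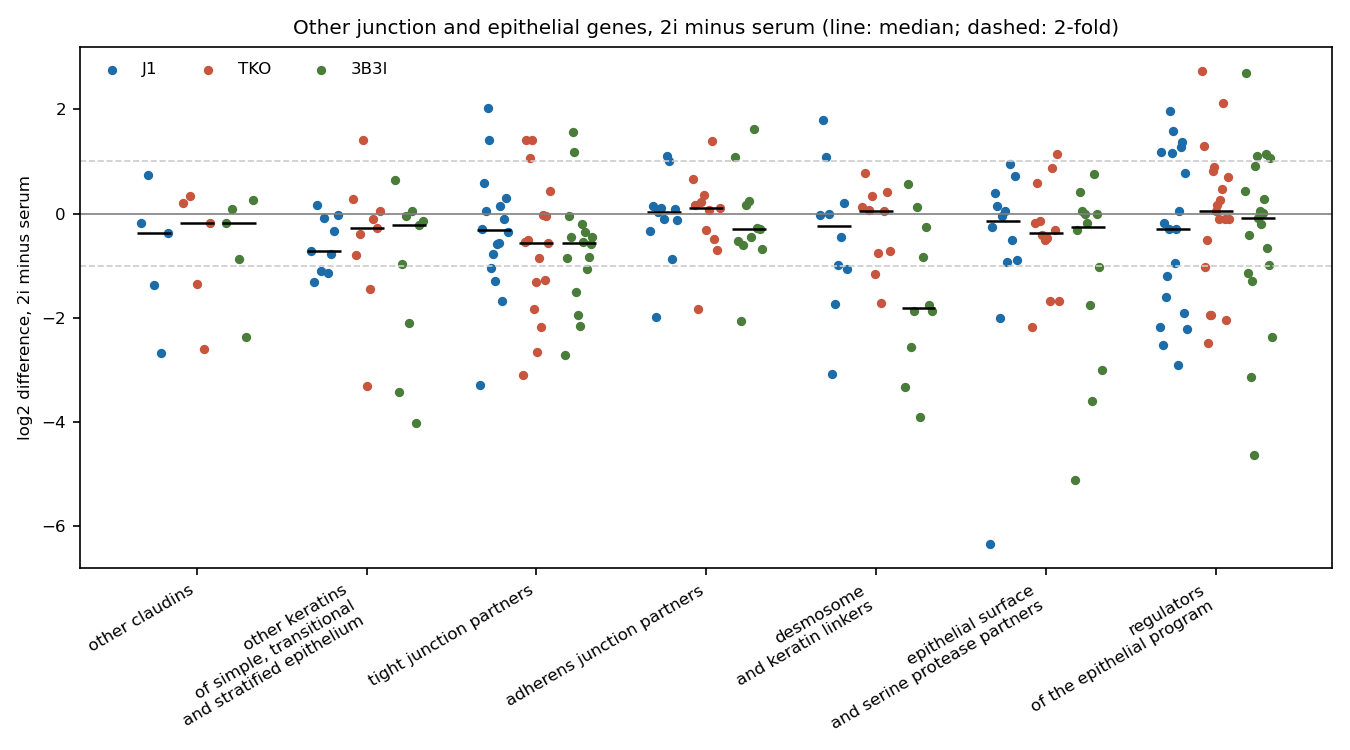
Log2 difference of 2i minus serum for every tested gene of the 7 lists in J1, TKO and 3B3l, with a line at the median of each list and dashed lines at 2-fold, the points being fitted values that include genes not well above background in some groups. The desmosome and keratin linker list has its median at -1.81 in 3B3l, and at -0.24 in J1 and 0.05 in TKO.

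The genes with the pattern most like Krt18 over the 16 arrays, out of 13627 genes compared, were 2200002D01Rik (Pearson r = 0.984), Plaur (0.983), Dysf (0.976), Prss23 (0.976) and Krt19 (0.975). Plaur encodes the urokinase receptor and Dysf the membrane repair protein dysferlin. Those most like Cldn6 were Gatm (0.989), Psmb8 (0.984), Fabp5 (0.983), Fndc4 (0.981) and Gap43 (0.981). Gatm is an enzyme of creatine synthesis and Psmb8 an immunoproteasome subunit. Among members, Krt18 and Krt19 were most alike (0.975), followed by Cldn6 and Epcam (0.947), and Cldn3 and Cdh1 were least alike (-0.73). The 16 arrays share lines, media and slides, so that these correlations describe the 6 groups more than independent samples.

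Neighbours in gene order differed among themselves. Next to Epcam on chromosome 17, Calm2 was at 0.16, 0.34 and -0.23 in J1, TKO and 3B3l and was not called. The potassium channel gene Kcnk12 was well above background in TKO-serum only, so that no change is given for it. Elp5, 0.338 kb from Cldn7, was at 0.29, 0.17 and 0.08, and Eif4b, next to Krt18, at -0.67, -0.10 and 0.05, and neither was called. On the other side of Cldn7, Slc2a4, at 1.08, was called higher and Ybx2, at -1.65, lower in TKO, and neither was called in J1 or 3B3l. Around Cldn3 and Cldn4, Mettl27, Abhd11 and Stx1a were not called in any line.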

How the data were processed

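RNA of 16 samples was hybridised to SurePrint G3 mouse one-colour arrays. Per the file headers, the deposited intensity values are signals of Agilent Feature Extraction 11.5.1.1, background-corrected and not scaled between arrays. A log2 table normalized between arrays, likewise deposited by the authors, was used here only as an alternative: 13 of its 16 columns matched another array of their group better than their own. The processed signals were taken to log2, each array's 75th percentile over non-control spots (1019 to 1797) was subtracted, non-uniform and population outlier spots were left out and saturated spots kept. A probe was tested if it was well above background on all arrays of at least 1 group (27126 of 55681 probes). Of the spots on an array, 39.7% to 49.0% were well above background, and the number of arrays limits the precision.

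One mean per group was fitted with limma 3.58.1 in R 4.3.3, with Benjamini-Hochberg adjustment over all tested probes, and every adjusted p given is from this fit unless another setting is named beside it. A gene was represented by its brightest probe. Probes were named through their RefSeq accessions. The script was tested on simulated data. The alternatives were other scalings, normexp, other filters, the authors' table, an unmoderated test, slide or replicate number as a block, and leaving out each array. The members and lists were chosen with earlier results of these data known. From each list, genes called one way in all 3 lines and the up to 2 with the largest mean rise and fall were named. Krt42, Tjp1, Ctnnb1, Ctnna1, Dsp, Dsc2, Plec, Snai1, Snai2, Zeb1, Zeb2, Cdx2 and the marker genes singled out were named after their values were seen.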

Additional observations from a re-analysis of the deposited data

Results flagged for a closer look

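In J1-serum, 1 array lay apart from the other 3 for 4 probes, by the gap test used for groups of 4. These were Krt18 in replicate 1 at 3.23, Cldn6 in replicate 1 at 3.40, Cldn3 in replicate 2 at 1.30 and the brighter Cldn4 probe in replicate 2 at 2.82 (log2 relative to the 75th percentile). Chance alone gives such a gap in about 1 in 20 groups.

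The tested difference between lines in the 2i response passed the threshold for these members. For TKO minus J1 it was -1.45 for Krt7, 1.72 for Krt8 and 2.40 for Krt19. For 3B3l minus J1 it was -4.38 for Krt7, -2.35 for Krt8, -2.71 for Krt19 and -1.41 for Cldn7. For 3B3l minus TKO it was -4.07 for Krt8, -5.11 for Krt19 and -2.10 for Cldn7, and the fit gave -2.93 for Krt7. The Krt7 values and the 3B3l values of Krt19 are fitted on 2i arrays not well above background and are not measured sizes. For Krt7 in 3B3l minus TKO this holds for both 2i groups, so that the difference of responses was not measured.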

How the results depend on the processing

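No value changed to the opposite direction while called. Of the values for single member probes under the alternatives, 3371 stayed on their side of the threshold, 13 passed it and 24 no longer did. Of the 3371, 46 had the other sign, and these were not called in either setting. The causes were not tested except where the construction shows them. Counts of members called moved as follows. For the responses they are over all 10 members and start from 4, 5 and 5 for TKO minus J1, 3B3l minus J1 and 3B3l minus TKO. They include Krt18, whose fall in 2i chose it, and are descriptions beside the tests of 8 members. With no fold limit they were 9 for 2i in J1, 9 for TKO against J1 in serum, 6 for TKO against J1 in 2i, 6 for 3B3l against TKO in 2i, 7 for the response of TKO minus J1 and 8 for that of 3B3l minus TKO. Requiring a signal well above background on all 16 arrays, which removes Krt7 and Krt19, left 3 for TKO against J1 in serum, 1 for TKO against J1 in 2i, 2 for 3B3l against J1 in each medium, 3 for 3B3l against TKO in serum and 1 in 2i, and 2, 3 and 3 for the responses of TKO minus J1, 3B3l minus J1 and 3B3l minus TKO. TKO against J1 in 2i gave 1 with quantile normalization, normexp or the authors' table, and 3B3l against TKO in 2i gave 1 with median scaling or normexp.

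Leaving out 1 array gave 1 to 2 members for TKO against J1 in 2i (1 without TKO-2i replicate 2) and 1 to 2 for 3B3l against TKO in 2i (1 without TKO-2i replicate 1). The other ranges were 5 to 5, 5 to 6 and 7 to 8 for 2i in J1, TKO and 3B3l, 5 to 5 for TKO against J1 in serum, 4 to 4 and 3 to 4 for 3B3l against J1 in serum and 2i, and 4 to 5 for 3B3l against TKO in serum.

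Scaling moved the centre of some comparisons. Median scaling shifted the median of all probes by 0.16 for 2i in J1, where calls were 55.6% higher in place of 44.5%, by 0.13 for 2i in 3B3l, by -0.14 for the response of TKO minus J1 (39.5% in place of 50.8%) and by 0.10 for that of 3B3l minus TKO (58.7% in place of 49.4%). The percentile over well-measured probes shifted 3B3l against J1 by -0.23 in serum (31.8% in place of 51.1%) and -0.20 in 2i (35.0% in place of 54.4%), and 3B3l against TKO by -0.16 (33.9% in place of 48.6%) and -0.13 (34.8% in place of 46.6%). Quantile normalization shifted 3B3l against J1 by -0.11 in serum and -0.10 in 2i and 3B3l against TKO in serum by -0.11, and the authors' table shifted 3B3l against J1 by -0.12 and -0.10.

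The replicate numbers share no stated batch, and the deviations of same-numbered arrays correlated at -0.13 to 0.29. Those of 2i against serum in 3B3l, at 0.29, and of 3B3l against J1 in serum, at 0.20 and 0.15, exceeded the limit of 0.1 set for pairing. With the replicate number as a block, 3085 genes in place of 3148 were called for 2i in J1, and 5 members. For TKO 5 members were called in place of 6, as Krt8 was at 0.99. With slide as a block, 1523 genes in place of 1997 were called for 3B3l against J1 in 2i, and for 3B3l against TKO 1199 in place of 1483 in serum and 1054 in place of 1391 in 2i. A pairing with the numbers crossed, chosen after seeing the data, gave 1456 genes for 3B3l against TKO in serum, in place of 1483 without a block and 1477 with it.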
